A study of Homo sapiens with 4 samples.

Results

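The genes described here are 128 longer genes whose nascent RNA was lower in Karpas 299 lymphoma cells held on CD30L+ CHO cells than in the same cells held on CHO cells. Members had to have at least 10000 counted bases on their own strand, a mean RPKM (reads scaled to counted bases and to library size) of at least 0.5 over both libraries, and a ratio of CD30L+ CHO to CHO at least 1.5-fold below 1, taken as log2((CD30L+ CHO RPKM + 0.25)/(CHO RPKM + 0.25)). Of 22798 genes in each file, 5803 met the length and level minimum, and the 128 members were 2.21% of these. For comparison, 2.69% of the 5803 were at least 1.5-fold higher on CD30L+ CHO cells. The members were chosen by this measured ratio and these measured levels, so their values in this contrast are a description and support nothing.

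Karpas 299 is an established human line of ALK-positive anaplastic large cell lymphoma (ALCL), a T cell lymphoma. Nascent RNA was measured by Bru-seq, in which bromouridine is built into new RNA, which an antibody then pulls out. All 4 cultures were treated for 3 h, with bromouridine present for the last 30 min. One culture was held on an adherent layer of Chinese hamster ovary cells that express CD30L (CD30L+ CHO) and one on CHO cells that do not (CHO), and both were lifted off by pipetting. The remaining cultures received SM-164, a bivalent Smac mimetic and thus an IAP antagonist, or its solvent DMSO, and no CHO layer is named for them. Sources used here give no dose of SM-164. With 1 library for each condition, differences have no replicate check and p-values were not computed.

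CD30 is a receptor of the TNF receptor family, and its ligand CD30L recruits TRAF proteins with cIAP1 and cIAP2 to it. Loss of these IAP proteins, whether through the receptor or through a Smac mimetic, lets the kinase NIK accumulate and switches on NF-kB signalling. Growing lymphoma cells depend on glucose, amino acids and nucleotides, and much of the machinery that supplies them is encoded by genes that MYC is known to act on.

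The libraries held 45535365 reads on CD30L+ CHO, 45885630 on CHO, 26217590 with SM-164 and 31030477 with DMSO. TNFRSF8, which encodes CD30, had 5.10, 4.97, 12.3 and 9.59 RPKM in the same order. ALK had 0.0966 to 0.137 RPKM over its 728838 counted bases, a whole-gene value that cannot show transcription of only a part of it. The further lymphoma markers IL2RA, IRF4 and BATF3 had 4.94 to 28.9 RPKM. Of 8 T cell markers, 1 to 3 per library reached 0.5 RPKM, and CD7 had 0 in every library. None of 22 stromal marker genes reached 0.5 RPKM in any library, and their summed RPKM was 0.656 on CD30L+ CHO cells against 0.607 on CHO cells. Markers of B cells, myeloid and NK cells (18 genes) summed to 3.63 RPKM on CD30L+ CHO cells against 5.80 on CHO cells, and 5.96 with SM-164 against 6.26 with DMSO, with 4 to 6 of them at 0.5 RPKM or more per library. Their part in the results was not tested. Fewer cells of a type and less RNA per cell cannot be told apart in such bulk libraries. Another scaling, TMM, moved the median over all tested genes by 0.17 on the log2 scale between CD30L+ CHO and CHO. Under TMM 42 of the members stayed past the threshold, and among all longer genes the calls split into 42 lower and 281 higher, against 128 lower and 156 higher as deposited. The members' median log2 ratio was -0.53 under TMM, with 0.08 for all 5803 genes. All 128 members stayed below 0, which follows from their choice in this contrast and supports nothing.

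The members' median log2 ratio of CD30L+ CHO against CHO was -0.70, and the ratios ran from -1.24 to -0.59. The median of all 5803 longer genes was -0.09. As plain folds of read counts, members stood at 0.361 to 0.651 of their CHO level, with a median of 0.539. Just inside the threshold were CTPS, SLA, WRAP73, HPCAL1 and ECI2, at -0.59. Just outside it were AMDHD2, TDRD9, C16orf5, CLEC2B and QDPR, at -0.58. The members therefore form the lower end of a continuous range, with no gap at the threshold.

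Most members were low to middling in level. Their median was 0.692 RPKM on CD30L+ CHO cells against 1.32 on CHO cells, and 1.28 with SM-164 and 1.39 with DMSO. The 5803 longer genes had medians of 1.31, 1.41, 1.25 and 1.27 RPKM in the same libraries. With SM-164 and DMSO, libraries that took no part in the choice, the members were thus at levels close to those of other longer genes. The CHO level is itself part of the choice. Behind each member lay 162 to 11283 estimated reads on CD30L+ CHO cells and 397 to 18876 on CHO. The members were short for this class, with a median of 23489 counted bases against 39637 for the genes tested. Members made up 4.46% of genes of 10000 to under 20000 counted bases, 1.99% of those of 20000 to under 50000 and 1.16% of longer ones. By chromosome, 17 lay on chromosome 1, and chromosomes 20 and 19 held the largest shares among those with at least 9 members, with 10 of 189 tested genes and 11 of 236.

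The most lowered member was HTRA3, a secreted serine protease gene on hg19 chr4:8271489-8308838. It had 0.965 RPKM on CD30L+ CHO cells against 2.61 on CHO cells, and 2.08 with SM-164 against 2.79 with DMSO. The fold was 0.369 (95% counting interval 0.349 to 0.391) for CD30L+ CHO over CHO and 0.745 (0.704 to 0.788) for SM-164 over DMSO. HTRA3 was thus lowest on CD30L+ CHO cells and was also below its solvent control with SM-164. Such intervals cover counting error only, because each condition has 1 library. PCR copies carry no molecular identifiers, so even this error may be understated.

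FYCO1, an adaptor that links autophagosomes and late endosomes to kinesin, had 0.931 RPKM on CD30L+ CHO cells against 2.37 on CHO cells. With SM-164 it had 2.26 RPKM, against 2.43 with DMSO. CARS2, the mitochondrial cysteinyl-tRNA synthetase, had 0.736 RPKM on CD30L+ CHO cells against 1.79 on CHO cells, and with SM-164 it was at 0.949 of its 2.28 RPKM with DMSO. In both genes the CHO, SM-164 and DMSO libraries lay close together and CD30L+ CHO stood apart. KCNE3, an accessory subunit of voltage-gated potassium channels, completed the 4 members at a log2 ratio of -1 or less, with 1.01 RPKM on CD30L+ CHO cells against 2.31 on CHO cells.

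**Figure D1:**
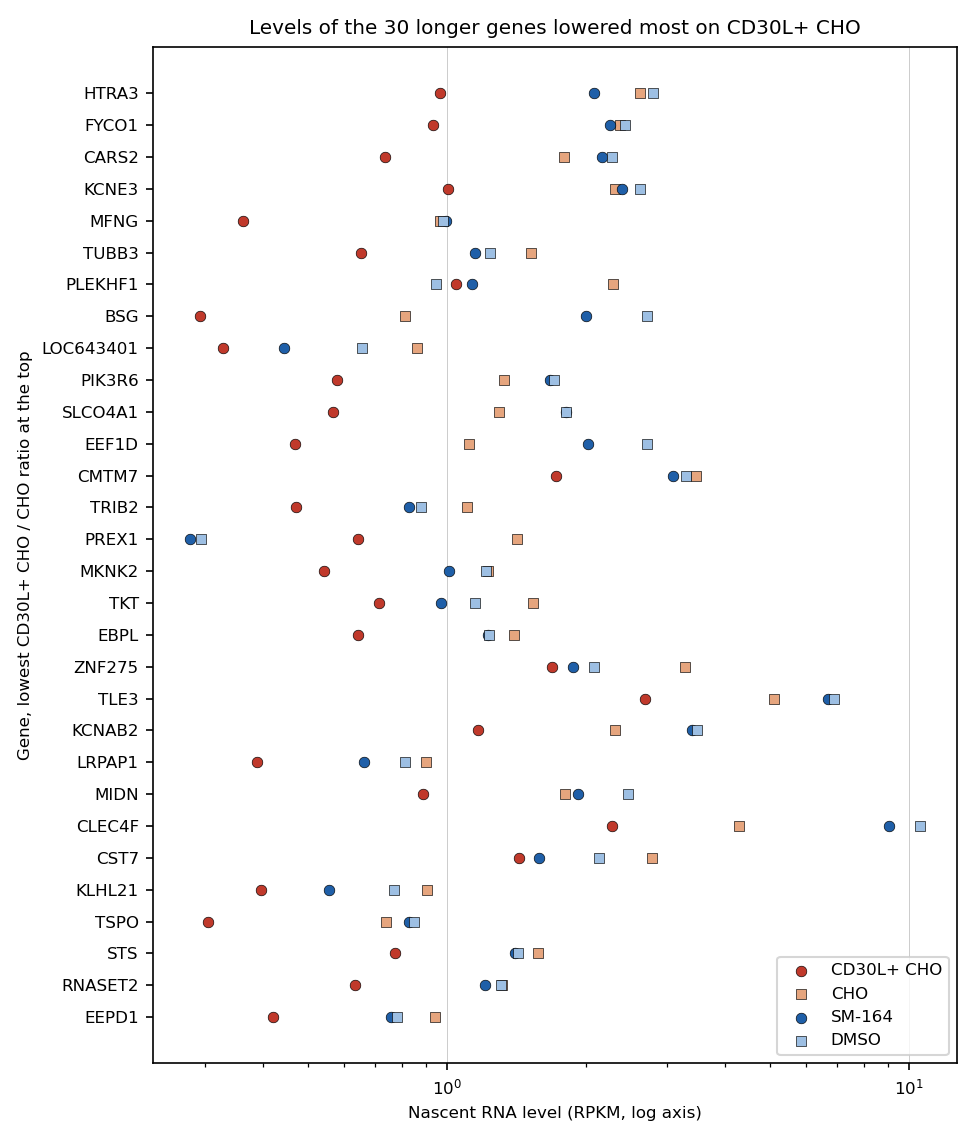
RPKM on a log axis for the members with the lowest log2 ratios of CD30L+ CHO against CHO, 1 gene per row and 1 point per library. The CD30L+ CHO point lies left of the CHO point in every row, as the choice of members requires, and for HTRA3, FYCO1 and CARS2 the other libraries lie together to the right.

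Members are described below by what they do. This grouping covers 88 of the 128 members in 11 groups and was drawn up after their values were seen, as were the picks beyond the 43 members that the naming rule took. Nucleotide synthesis, carbon and fatty acid metabolism, and solute and metabolite transport were 3 of the groups, with 6, 8 and 9 members. The transport group also held the potassium channel subunits KCNE3 and KCNAB2. A list of 35 genes of amino acid, nucleotide and one-carbon metabolism had 24 tested longer genes. Of these, 6 were members, none was at least 1.5-fold higher, and the median log2 ratio of CD30L+ CHO against CHO was -0.20, beside -0.09 for all longer genes. The same list had a median of -0.04 for SM-164 against DMSO, beside -0.02 for all longer genes, and none of its genes was past 1.5-fold there.

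Purine synthesis gave 5 members. PPAT, which catalyses the committed step, had 0.806 RPKM on CD30L+ CHO cells against 1.55 on CHO cells, and 1.28 with SM-164 against 1.37 with DMSO. PAICS, which acts further down the path, had 2.14 RPKM on CD30L+ CHO cells against 3.35 on CHO cells, and 4.10 with SM-164 against 4.86 with DMSO. ATIC, which completes the ring to IMP, had 0.587 RPKM on CD30L+ CHO cells against 1.12 on CHO cells, and 1.41 with SM-164 against 1.44 with DMSO. In each of these genes CD30L+ CHO was the lowest library, and CHO was the lower of the remaining ones for PAICS and ATIC but the highest of all for PPAT. PPAT and PAICS are neighbours on chromosome 4 on opposite strands, and their annotated hg19 starts lie 112 bases apart.

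Each branch after IMP also held a member. IMPDH2 and GMPS, listed genes of the GMP branch, were neither members nor among the shorter genes that met the same level and ratio rule. IMPDH1, the first enzyme towards GMP, had 0.324 RPKM on CD30L+ CHO cells against 0.736 on CHO cells, a fold of 0.440 (0.379 to 0.509). ADSS, the first enzyme towards AMP, had 1.37 RPKM on CD30L+ CHO cells against 2.24 on CHO cells. CTPS, which makes CTP from UTP, had 0.781 RPKM on CD30L+ CHO cells against 1.30 on CHO cells. Across these 6 nucleotide genes the SM-164 over DMSO log2 ratio ran from -0.23 for PAICS to 0.03 for CTPS, with 5 of 6 below 0.

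Nutrient carriers included the most highly transcribed member. SLC2A1, the glucose transporter GLUT1, had 7.03 RPKM on CD30L+ CHO cells against 10.8 on CHO cells, and 11.5 with SM-164 against 11.6 with DMSO. SLC1A5, a neutral amino acid carrier that takes up glutamine, had 2.33 RPKM on CD30L+ CHO cells against 3.97 on CHO cells, and 5.37 with SM-164 against 5.79 with DMSO. SLC6A6, the taurine carrier, had 0.377 RPKM on CD30L+ CHO cells against 0.828 on CHO cells, and 0.604 with SM-164 against 0.625 with DMSO. For these carriers CD30L+ CHO was lowest and SM-164 stood within 10% of DMSO. SLCO4A1, an organic anion transporter, had 0.566 RPKM on CD30L+ CHO cells against 1.30 on CHO cells, and 1.81 with either SM-164 or DMSO. SLC19A2, a thiamine carrier, and SLC29A1, a nucleoside carrier, were members at folds of 0.634 and 0.551.

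Enzymes of carbon metabolism had lower values with both treatments than with their controls. IDH1, the cytosolic isocitrate dehydrogenase, had 0.933 RPKM on CD30L+ CHO cells against 1.77 on CHO cells, and 1.12 with SM-164 against 1.56 with DMSO. TKT, the transketolase of the pentose phosphate pathway, had 0.713 RPKM on CD30L+ CHO cells against 1.54 on CHO cells, and 0.973 with SM-164 against 1.15 with DMSO. GPI, which interconverts glucose and fructose phosphates, had 0.652 RPKM on CD30L+ CHO cells against 1.21 on CHO cells, and 1.39 with SM-164 against 1.67 with DMSO. All 8 members of this group, with LDHB, MDH2, PYGB, PDP2 and ECI2, had an SM-164 over DMSO log2 ratio below 0, with a median of -0.21. That count is near the share of all tested members, 86.3%, while 57.8% of all longer genes were below 0. Of 36 tested genes of a broader list of lipid, sterol and carbohydrate metabolism, only SLC2A1 was a member, 1 gene was at least 1.5-fold higher, and the median was -0.25.

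The group named protein synthesis and ribosome production had 11 members. It was drawn widely and took in TOMM40 and TRAP1, mitochondrial proteins that do not themselves make protein or ribosomes. EEF1D, a subunit of the elongation factor 1 exchange complex, had 0.469 RPKM on CD30L+ CHO cells against 1.11 on CHO cells, and 2.02 with SM-164 against 2.71 with DMSO. UBTF, the RNA polymerase I factor, had 0.533 RPKM on CD30L+ CHO cells against 0.953 on CHO cells, and 0.956 with SM-164 against 1.29 with DMSO. EIF3B, a translation initiation subunit, had 1.78 RPKM on CD30L+ CHO cells against 2.86 on CHO cells, and 2.11 with SM-164 against 2.39 with DMSO. Each of these was lower with SM-164 than with DMSO, with folds of 0.745, 0.739 and 0.881 whose counting intervals stayed below 1. They stood at the low end of the group, whose SM-164 median was -0.07 with 9 of 11 below 0, and BYSL and HEATR3 were at 0.07 and 0.06. GTF3A, a factor for 5S ribosomal RNA genes, FARSA, a subunit of a tRNA synthetase, and BYSL, a ribosome assembly factor, were members at folds of 0.559, 0.553 and 0.595. UBTF was the sole member among 15 tested longer genes of the MYC and ribosome biogenesis list, in which 1 gene was at least 1.5-fold higher. The list median was -0.43 with 13 of 15 below 0, against 68.9% of all longer genes. MYC itself is too short to be a member and had 2.92 RPKM on CD30L+ CHO cells against 6.74 on CHO cells, and 4.90 with SM-164 against 6.67 with DMSO.

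Genes of lymphocyte signalling formed another group of 10. The T cell receptor list had 17 tested longer genes, of which PTPN22, CD4 and CSK were members and none was at least 1.5-fold higher. Its median log2 ratio of CD30L+ CHO against CHO was -0.11 with 12 of 17 below 0. That is near the -0.09 and 68.9% of all longer genes. CD4, the T cell co-receptor, had 0.464 RPKM on CD30L+ CHO cells against 0.863 on CHO cells, and 1.21 with SM-164 against 1.42 with DMSO. PTPN22, a phosphatase that restrains receptor signalling, had 0.663 RPKM on CD30L+ CHO cells against 1.35 on CHO cells, and 0.816 with SM-164 against 0.921 with DMSO. CSK, the kinase that inhibits SRC family kinases, had 0.449 RPKM on CD30L+ CHO cells against 0.808 on CHO cells, and 0.672 with SM-164 against 0.774 with DMSO. Each of these 3 genes was lower with SM-164 than with DMSO, with a counting interval below 1. PIK3R6, a regulatory subunit of PI3-kinase gamma, had 0.578 RPKM on CD30L+ CHO cells against 1.33 on CHO cells, and 1.67 with SM-164 against 1.71 with DMSO. SLA, an adaptor that dampens receptor signalling, went the other way with SM-164, at 1.04 of its 8.65 RPKM with DMSO, while on CD30L+ CHO cells it had 3.32 RPKM against 5.12 on CHO cells. Summed over 8 T cell markers, CD4 among them, the level was 1.84 RPKM on CD30L+ CHO cells against 2.47 on CHO cells, and 4.01 with SM-164 against 3.95 with DMSO. Over the 16 genes of the receptor list tested with SM-164 and DMSO, 6 were below 0 and the median was 0.05.

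Adhesion and Rac signalling genes were members in similar number. ITGA4, the alpha 4 integrin chain, had 2.83 RPKM on CD30L+ CHO cells against 4.72 on CHO cells, and 6.96 with SM-164 against 7.71 with DMSO. RAC2, the Rac GTPase of blood cells, had 1.10 RPKM on CD30L+ CHO cells against 1.84 on CHO cells, and 2.67 with SM-164 against 2.95 with DMSO. ITGA4 and RAC2 had less nascent RNA on either feeder layer than without one. PREX1, an exchange factor for Rac and the member with the most counted bases, had 0.642 RPKM on CD30L+ CHO cells against 1.41 on CHO cells, but 0.278 with SM-164 against 0.293 with DMSO. PREX1 was thus higher on either feeder layer than without one, and CHO alone was the highest library. CNN2, a calponin that binds actin, had 0.519 RPKM on CD30L+ CHO cells against 1.00 on CHO cells, and 1.73 with SM-164 against 2.44 with DMSO.

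Among transcription and signalling factors, TLE3, a Groucho co-repressor, had 2.69 RPKM on CD30L+ CHO cells against 5.10 on CHO cells, and 6.69 with SM-164 against 6.90 with DMSO. ZMYND8, a chromatin reader, had 1.68 RPKM on CD30L+ CHO cells against 2.80 on CHO cells, and 2.22 with SM-164 against 2.10 with DMSO. TRIB2, a pseudokinase, had 0.472 RPKM on CD30L+ CHO cells against 1.10 on CHO cells, and 0.829 with SM-164 against 0.877 with DMSO. These factors were lowest on CD30L+ CHO cells, and ZMYND8 was higher with SM-164 than with DMSO. CDC25B, a phosphatase that activates cyclin-dependent kinases, had 0.979 RPKM on CD30L+ CHO cells against 1.73 on CHO cells, and 1.71 with SM-164 against 2.06 with DMSO. It was the sole member among 43 tested cell cycle genes, a share near the 2.21% of all longer genes, and 1 gene of that list was at least 1.5-fold higher. The list median was -0.13. Outside that list, SKP2, a subunit of a ubiquitin ligase for cell cycle inhibitors, and TACC3, a spindle protein, were members at folds of 0.570 and 0.568.

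Surface and lysosomal proteins made up the largest group, with 13 genes. BSG, which encodes basigin, a chaperone of lactate carriers, had 0.292 RPKM on CD30L+ CHO cells against 0.809 on CHO cells, and 2.00 with SM-164 against 2.70 with DMSO. CLU, the extracellular chaperone clusterin, had 1.54 RPKM on CD30L+ CHO cells against 2.85 on CHO cells, and 4.14 with SM-164 against 5.64 with DMSO. CTSZ, a lysosomal cathepsin, had 0.653 RPKM on CD30L+ CHO cells against 1.15 on CHO cells, and 2.13 with SM-164 against 2.84 with DMSO. In these genes DMSO was highest and CD30L+ CHO lowest, and CHO lay below SM-164 and DMSO. MFNG, the Manic fringe glycosyltransferase that modifies Notch, had 0.362 RPKM on CD30L+ CHO cells against 0.967 on CHO cells, and 0.994 with SM-164 against 0.983 with DMSO. Of the 13 genes, 12 were below 0 with SM-164, near the share of all members, and their median was -0.21.

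**Figure D2:**
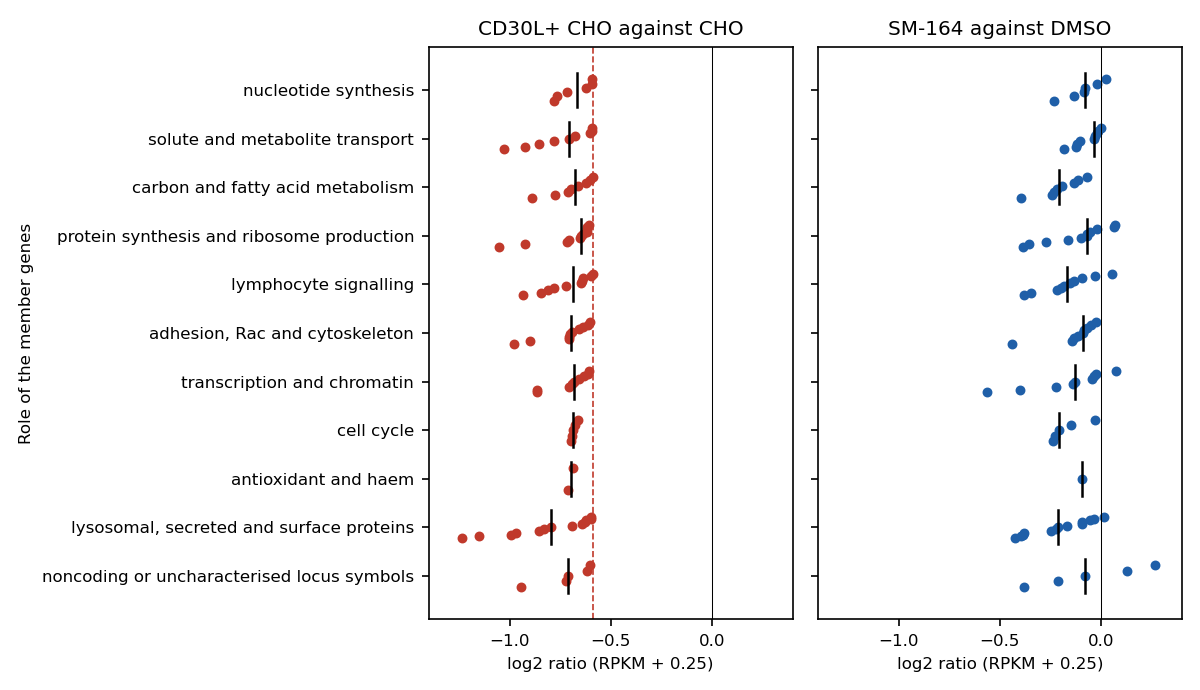
log2 ratios of members by role group for CD30L+ CHO against CHO and for SM-164 against DMSO. Points are genes, black bars are group medians and the dashed line is the threshold of the choice. In the first comparison all points lie left of it, as chosen, while SM-164 medians run from -0.21 for the carbon and fatty acid, cell cycle and surface groups to -0.03 for the transport group.

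Several lists held genes that were at least 1.5-fold higher on CD30L+ CHO cells and no member. NF-kB subunits and feedback inhibitors had 15 tested longer genes, 10 of which were at least 1.5-fold higher on CD30L+ CHO cells and 8 with SM-164, with medians of 1.04 and 0.61. Apoptosis and p53 genes had 7 of 29 higher, with a list median of -0.01 and 15 of 29 below 0, and cytokine receptor and JAK-STAT genes 5 of 30, with a median of 0.18 and 13 of 30 below 0. Transcriptional repressors and lymphoid factors had 4 of 32 higher, with a median of 0.20. Among all longer genes 2.69% were higher and 2.21% were members, so a list of this size without a member is near the background. Chromatin regulators, with 52 tested genes, also held none.

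SM-164 against DMSO shares no library with the contrast that chose the members. Here 124 of the 128 passed the level minimum, and PREX1, HMOX1, VWA5A and FKBP7 did not. None of the 124 was at least 1.5-fold lower, as for 0.0% of all 5745 longer genes tested, and none was at least 1.5-fold higher, against 0.766% of all. Below that threshold, 107 of 124 members (86.3%) had a log2 ratio below 0, against 57.8% of all longer genes. Their median was -0.10, against -0.02 for all, and ratios ran from -0.57 for HIST1H2BD to 0.27 for LOC388796. For 59 members (47.6%) the counting interval of the fold lay below 1, against 25.7% of all, and for 5 members (4.03%) it lay above 1, against 20.1%. The size of these differences was small, with a median fold of 0.920. With 1 library each, a difference of this size cannot be told from the variation between cultures.

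**Figure D3:**
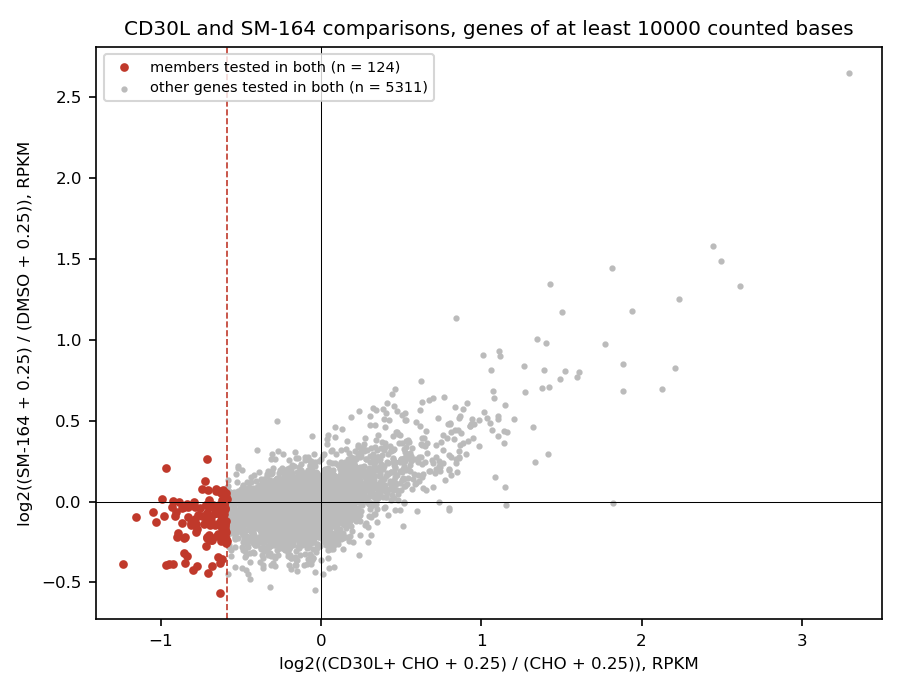
log2 ratio of SM-164 against DMSO plotted against that of CD30L+ CHO against CHO, 1 point per longer gene, with members marked. Members lie left of the threshold by choice, and most lie below 0 on the SM-164 axis, with none at least 1.5-fold lower or higher there. The dashed line is the threshold of the choice.

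Gene length moved with this result, since shorter genes were lower with SM-164 in general. Among genes of 10000 to under 20000 counted bases, 87.5% of 56 members were below 0 with SM-164, against 71.3% of all, with medians of -0.13 and -0.08. Among genes of 20000 to under 50000 the shares were 88.1% of 42 members and 64.8% of all, and among longer genes 80.8% of 26 members and 43.5% of all. In each length class the members' share was above that of all genes. After subtraction of the running median over counted bases, 93 of the 124 members were below 0, against 49.7% of all.

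**Figure D4:**
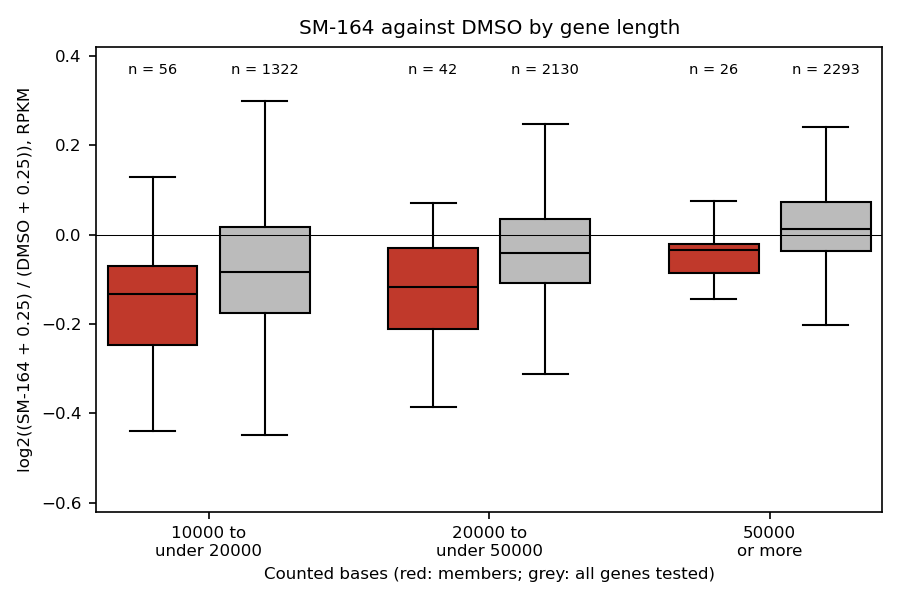
Boxes of the log2 ratio of SM-164 against DMSO for members and for all tested genes in classes of counted bases. Boxes span the quartiles, lines mark medians, whiskers reach to 1.5 times the box height and points beyond are not drawn. Member medians of -0.13, -0.12 and -0.03 lie below the medians of all genes of -0.08, -0.04 and 0.01.

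The lowest SM-164 ratios among members belonged to genes met above or singled out after their values were seen. HIST1H2BD, a histone H2B gene, had 1.83 RPKM with SM-164 against 2.82 with DMSO, and 0.535 on CD30L+ CHO cells against 0.964 on CHO cells. Histone genes have near-identical copies, and whether reads were shared with them was not tested. CNN2, CLU, TADA2B and IDH1 followed at log2 ratios of -0.44, -0.43, -0.40 and -0.40. At the other end LOC388796 had 3.34 RPKM with SM-164 against 2.73 with DMSO, and small nucleolar RNA genes lie within it.

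Shorter genes that met the same level and ratio rule were set beside the members. There were 253 of them with 300 to under 10000 counted bases, and 245 were tested with SM-164. Their median log2 ratio there was -0.33, against -0.18 for all genes of that length and -0.10 for the longer members. After subtraction of the running median over counted bases, the medians were -0.10 for these shorter genes and -0.06 for the members. The shares below 0 were then 67.8% and 75%. Of the 245, 29 were at least 1.5-fold lower with SM-164, against 87 of all 2136 tested genes of that length. No gene of at least 10000 counted bases was that much lower, member or not.

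The levels on CHO cells can be set beside DMSO, but that comparison and CD30L+ CHO against DMSO each share a library with the contrast that chose the members, so neither supports a reading of them. For CHO against DMSO, 18 members (14.1%) were at least 1.5-fold lower, against 3.53% of all longer genes, and 9 (7.03%) were higher, against 7.63%. The members' median was 0.00, against 0.12 for all. For CD30L+ CHO against DMSO, 82 of 122 members tested were at least 1.5-fold lower, against 9.31% of all, and none was higher, against 10.5%, with a median of -0.74. The remaining 101 members (78.9%) lay within 1.5-fold of DMSO when held on CHO cells. CD30L+ CHO was the lowest of the 4 libraries for 118, which the choice itself favours. The share of all longer genes was not computed for that order. The 6 members above DMSO on CD30L+ CHO cells were PLEKHF1, PREX1, HMOX1, LOC388796, PGBD2 and FUCA1. PLEKHF1, an endosomal adaptor, had 1.04 RPKM on CD30L+ CHO and 2.28 RPKM on CHO, against 0.948 with DMSO. HMOX1, the haem-degrading enzyme, had 0.486 RPKM on CD30L+ CHO and 0.956 RPKM on CHO, against 0.395 with DMSO. For these genes the CHO library was the highest of the 4. The feeder layer, the lifting by pipetting and the run of the 2 experiments cannot be told apart here.

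Some members share a locus, and their values are then not independent. NPHP4 and KCNAB2 overlap by 176 bases at their starts on chromosome 1, on opposite strands. KCNAB2, a potassium channel beta subunit, had 1.17 RPKM on CD30L+ CHO cells against 2.32 on CHO cells, and 3.40 with SM-164 against 3.48 with DMSO. NPHP4, a protein of the ciliary transition zone, had 1.65 RPKM on CD30L+ CHO cells against 2.66 on CHO cells, and 3.93 with SM-164 against 3.90 with DMSO. Both genes were highest without a feeder layer and nearly level between SM-164 and DMSO. In all, 32 members overlap another annotated gene, among them FYCO1 with CXCR6, and how the authors' counting divided shared reads is not known here.

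Promoters of 102 members, 8 of them by an older symbol, were found in RefSeq (GRCh38.p14; 250 bases before to 50 after the first listed start), beside those of 4815 longer genes tested. Their median GC content was 69.3%, against 65.3% for the genes tested. Motifs were searched on both strands. The E-box CACGTG, the site that MYC with MAX is known to bind, lay in 11.8% of member promoters, 10.7% of those of the genes tested and 7.23% of all 34943 promoters. The GC box GGGCGG lay in 75.5%, 71.1% and 44.9%, and a kB-like pattern, GGG and CC with any 5 bases between, in 79.4%, 72.5% and 58.6%. The GAS pattern TTCNNNGAA, which STAT proteins are known to bind, lay in 6.86%, 6.23% and 7.66%, and the ETS site CCGGAAGT in 4.90%, 10.8% and 4.11%. Between members and the genes tested, the widest gaps were for the kB-like pattern, which more member promoters held, and for ETS, which fewer held (5 members). The kB-like pattern is set only by G and C letters, and member promoters had the higher GC content. Whether its share follows GC content was not tested. A motif match is a description of letters and not a bound site. The stretches below end at the base before the start, run 5' to 3' on the gene's strand, and show nutrient genes and TLE3 from the groups above, EEPD1 as a further member with an E-box, and KCNAB2 for the locus it shares with NPHP4. Capitals mark the E-box in ATIC (chr2:215311939-215312058, plus strand), TLE3 (chr15:70097918-70098037, minus) and EEPD1 (chr7:36153134-36153253, plus), and the GC box in PPAT (chr4:56435616-56435725, minus), CTPS (chr1:40979586-40979695, plus), SLC1A5 (chr19:46788595-46788724, minus) and SLC2A1 (chr1:42958869-42958998, minus). In the KCNAB2 stretch (chr1:5992546-5992675, plus), part of the 250 bases between the NPHP4 and KCNAB2 starts in RefSeq, capitals mark the kB-like pattern. Of the GC boxes in CTPS, 2 overlap.
ATIC: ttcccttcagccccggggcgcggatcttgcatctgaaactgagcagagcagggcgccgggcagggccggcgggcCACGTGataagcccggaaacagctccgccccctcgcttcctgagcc
TLE3: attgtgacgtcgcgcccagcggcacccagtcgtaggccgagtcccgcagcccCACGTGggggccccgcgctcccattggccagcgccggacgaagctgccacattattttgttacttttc
EEPD1: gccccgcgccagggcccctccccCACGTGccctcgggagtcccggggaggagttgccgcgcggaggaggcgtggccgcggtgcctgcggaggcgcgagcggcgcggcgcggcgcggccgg
PPAT: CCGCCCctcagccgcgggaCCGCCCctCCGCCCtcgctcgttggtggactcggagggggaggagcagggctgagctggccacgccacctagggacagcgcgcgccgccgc
CTPS: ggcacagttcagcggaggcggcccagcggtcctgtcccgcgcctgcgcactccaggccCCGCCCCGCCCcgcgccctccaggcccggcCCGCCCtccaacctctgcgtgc
SLC1A5: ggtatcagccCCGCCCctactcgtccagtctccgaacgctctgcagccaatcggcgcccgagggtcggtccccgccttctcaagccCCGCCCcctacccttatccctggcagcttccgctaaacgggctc
SLC2A1: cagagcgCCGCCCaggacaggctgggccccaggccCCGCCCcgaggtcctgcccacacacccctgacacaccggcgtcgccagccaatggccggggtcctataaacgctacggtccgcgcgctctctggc
KCNAB2: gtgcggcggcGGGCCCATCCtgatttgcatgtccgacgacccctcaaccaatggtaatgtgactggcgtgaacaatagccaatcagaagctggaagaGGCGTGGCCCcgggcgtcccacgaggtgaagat
EEPD1, a member with 148317 counted bases, had 0.421 RPKM on CD30L+ CHO cells against 0.941 on CHO cells, and 0.756 with SM-164 against 0.779 with DMSO. ATIC and TLE3 also hold an E-box and are in the groups of purine synthesis and transcription, while PPAT holds one elsewhere in its promoter window.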

How the data were processed

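Nascent RNA of Karpas 299 cells was measured in 4 Bru-seq libraries, 1 per condition. The tools were bedtools 2.16.2, TopHat 1.4.1, Bowtie 0.12.8 and CASAVA 1.8.2, with hg19, per the submitters' processing notes. Which gene annotation was used is not stated there. The authors deposited, per feature, an estimated count over exons and introns together, a signal per base, and an RPKM scaled by 1 library total. Between 60.6% and 70.8% of non-zero estimated counts were whole within 0.001 reads. Exon and intron reads cannot be told apart.

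Own-strand entries were used, and a repeated symbol kept the entry with most counted bases, which dropped 186 entries. Ratios are log2((RPKM + 0.25)/(RPKM + 0.25)), which understates differences between low levels. Genes were tested at a mean RPKM of at least 0.5 over both libraries compared. Folds are ratios of rounded estimated counts over library totals with an exact conditional (Clopper-Pearson) 95% interval. The libraries' totals were recovered from the deposited signal and RPKM. The procedure was tested on simulated counts that held counting error only, so the simulation says nothing about variation between cultures. The length trend is a running median over 301 genes ordered by counted bases.

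Members and gene lists were chosen with earlier results of these data known. Named were the 20 members with the lowest ratio, members past 1.5-fold with SM-164, members on a list, the 5 genes on either side of the threshold, the 5 highest members and the 3 with most counted bases. Other names were chosen after their values were seen. Alternatives were other pseudocounts, level and length minima, a stricter threshold, a median set to 0, TMM (edgeR 4.0.16, R 4.3.3) and the length trend. Promoters came from RefSeq. Calculations ran in Python 3.11.15 with matplotlib 3.10.9, scipy 1.17.1, pandas 2.3.3 and numpy 2.4.6.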

Additional observations from a re-analysis of the deposited data

How the results depend on the processing

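The number of members depended on every setting of the rule except a counting interval that excludes 1, which kept all 128. It was 230 and 16 with pseudocounts of 0.1 and 1, 61 with the median of all tested genes set to 0, 42 with TMM, 57 after subtraction of the length trend, 66 and 196 with a mean RPKM of at least 1 and no minimum, 70 and 198 with at least 20000 and 5000 counted bases, and 4 at a log2 ratio of -1 or less. Over the 5 alternatives of pseudocount and scaling, the 43 members named by the rule ran from -1.35 to -0.30 for CD30L+ CHO against CHO. They were chosen as low in this contrast and a pseudocount cannot change a sign, so values below 0 support nothing. For SM-164 against DMSO, the members' median stayed between -0.13 and -0.06, and none was 1.5-fold higher under any alternative. With a pseudocount of 0.1, 1 member, HIST1H2BD, was 1.5-fold lower. The count below 0 was 49 of 60 with a mean RPKM of at least 1, against 55.1% of all longer genes. It was 169 of 196 with no minimum, against 51.8%. With at least 20000 and 5000 counted bases it was 58 of 68 and 165 of 193, against 53.8% and 60.4% of all genes of that length. At a ratio of -1 or less it was 4 of 4, against 57.8%. Of the 124 members, 85 were below 0 with the median set to 0, 87 with TMM and 93 after subtraction of the length trend, against 107 as deposited. The CD30L+ CHO against DMSO median was -0.46 with a pseudocount of 1 and -1.26 at a ratio of -1 or less, where the CHO against DMSO median was -0.13. Calls for CHO against DMSO split into 300 lower and 262 higher with TMM, against 210 and 454 as deposited, and for CD30L+ CHO against DMSO into 425 and 792, against 535 and 606. These settings change the rule or the scale itself, and causes beyond that were not tested. No paired analysis was possible because each condition has 1 library, and leaving out a replicate was not possible for the same reason. Depth limits lowly transcribed members, with a median half-width of the counting interval of 0.12 on the log2 scale for CD30L+ CHO against CHO.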

Other observations

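Opposite-strand entries existed for 125 members and were nearly silent. The median antisense RPKM was 0.00361 on CD30L+ CHO against 0.00613 on CHO, and 0.00602 with SM-164 and 0.00594 with DMSO. Over CD30L+ CHO and CHO, only GTF3A and HIST1H2BD reached a mean of 0.5 RPKM. The antisense entry of GTF3A, which the gene MTIF3 overlaps, had 0.465 RPKM on CD30L+ CHO cells against 0.551 on CHO cells. That of HIST1H2BD had 0.617 RPKM on CD30L+ CHO cells against 0.784 on CHO cells.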
